A study of Rattus norvegicus with 24 samples.

Results

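The data described here are the 2 arrays, of 24 in the series, on which RNA from the hippocampus of rats given the low dose of MK-801 was set against RNA from the hippocampus of rats given saline. They were taken by their titles: on replicate 1 the treated RNA carried the dye Cy5 and the saline RNA Cy3, and on replicate 2 the dyes were exchanged. The groups were male Wistar rats injected intraperitoneally with MK-801 at 0.08 mg/kg (low dose), rats injected in the same way at 0.16 mg/kg (high dose), and saline-injected rats. The study used 9 rats, 3 of them given saline, and removed the brains 40 min after injection. Their age was 9 weeks according to the sample labels but 10 weeks according to the design text. Hippocampus, amygdala, cerebral cortex, hypothalamus, midbrain and ventral striatum were dissected from each brain, so all regions of a dose come from the same animals.

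MK-801 (dizocilpine) blocks the open channel of the NMDA receptor, a glutamate receptor that passes calcium when the cell is depolarised. In the hippocampus this receptor is needed for several forms of synaptic plasticity, and its calcium signal switches on immediate early genes, which are transcribed within minutes of a stimulus. Blockers of the channel are used in rodents as pharmacological models of psychosis. The hippocampus borders a ventricle with choroid plexus, the epithelium that makes cerebrospinal fluid, and is covered in part by meninges, so a dissected piece can carry either tissue.

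Ratios in the text are on the log2 scale, treated rats over saline rats, so a negative value means lower in treated rats. Since separate extracts for both arrays are not stated in the labels, the pair stood as 1 replicate, and no test of low dose against saline within the hippocampus was possible. Transcripts are described by a fold rule: past 1.5-fold in size, with the same sign on both arrays. Of 35525 features (a gene, or an unnamed sequence with a probe of its own), 20984 were measured, meaning well above background in at least 1 channel of both arrays. Over these the SD of the mean ratio was 0.115. The ratios of both arrays correlated at -0.31 across features, which are not independent replicates, and at 0.25 once each feature's mean dye effect in the rest of the series was removed; removing it left 9 higher and 10 lower features past the fold rule, 17 of the 19 shared. On these arrays between 60.9% and 70.2% of spots were well above background per channel, and 0 were saturated.

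The labelled tissue was checked against marker genes in the saline channels. Of 10 pan-hippocampal markers, 9 were higher in the hippocampus than the mean of the other 5 regions, with a median difference of 1.87 log2 units, among them the neuronal transcription factors Neurod6 (3.15) and Neurod2 (3.86). Of 8 thalamic and 15 striatal markers, 0 and 1 were higher. Of 12 neocortical markers 7 were higher, with a median difference of 0.18, so the check does not separate the hippocampus from neocortex by that list. Each region was measured on arrays of its own, so region and array cannot be told apart in these levels. The series was scanned on 3 days, the hippocampus on the same day as the hypothalamus.

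The 19 transcripts past the fold rule were 9 higher in low-dose hippocampus (0.0429% of the features measured) and 10 lower (0.0477%). A gene symbol was at hand for 2 of the higher and 7 of the lower ones. With the scanner software's own processed signals the split was 19 higher and 45 lower, and with median centring of the arrays in place of loess 5 higher and 3 lower. The probes of 4 of them are shown because they stand for the largest rise, the largest decrease and 2 matrix genes. A further condition of the choice was that at least 1 reading frame of the 60 bases holds no stop codon. Most of the 19 meet it, the share over all probes was not computed, and it is no result about the 4. LOC685106 is a model name in the array's annotation that the RefSeq name table does not hold, and it was chosen after its values were seen. Probe positions are those of the array files (build rn3, plus strand), and no base is set off in capitals.
LOC685106, chr2:6337052-6337111: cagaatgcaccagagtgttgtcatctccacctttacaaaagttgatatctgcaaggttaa
Ttr, chr18:12434403-12434462: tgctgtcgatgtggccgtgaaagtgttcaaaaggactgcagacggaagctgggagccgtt
Col3a1, chr9:44318879-44318938: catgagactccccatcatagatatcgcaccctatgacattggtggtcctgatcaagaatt
Cilp, chr8:69535987-69536046: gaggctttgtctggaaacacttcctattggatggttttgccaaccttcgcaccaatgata

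**Figure D1:**
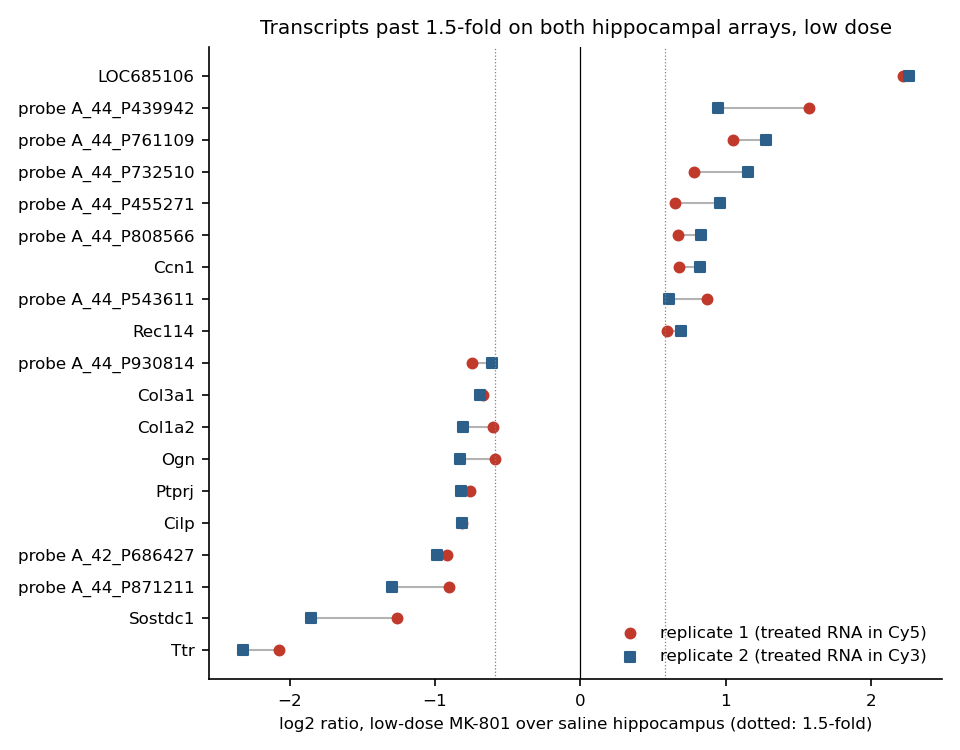
Log2 ratio of low-dose MK-801 over saline hippocampus (horizontal axis) for the 19 transcripts past 1.5-fold on both arrays, ordered from the highest mean at the top; circles are replicate 1 (treated RNA in Cy5), squares replicate 2 (treated RNA in Cy3), and dotted lines mark 1.5-fold. LOC685106 lies near 2.24 on both arrays, and Ttr and Sostdc1 lie lowest.

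The largest decreases were in genes of the choroid plexus. Ttr encodes transthyretin, the carrier of thyroid hormone and retinol-binding protein that choroid plexus epithelium secretes into cerebrospinal fluid. Its normalised intensity was 2123 and 1704 in low-dose hippocampus, against 8924 and 8528 in saline hippocampus. Both treated values lay far below both saline values, and the log2 ratios were -2.07 and -2.32, with a mean of -2.20 ± 0.18 (SD, n = 2 arrays). Sostdc1, a secreted antagonist of BMP and Wnt signalling, had intensities of 115 and 284 in low-dose hippocampus and 277 and 1025 in saline hippocampus. Its levels overlapped between arrays, but within each array the treated channel was the lower one, with ratios of -1.26 and -1.85 and a mean of -1.56 ± 0.42 (SD, n = 2 arrays).

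Of 21 choroid plexus genes listed, 18 had a probe and 10 were measured; 2 of these were past the fold rule as lower, 0 as higher. Lower on both arrays were 9 of the 10, where 19.3% of all measured features were lower on both arrays; the other one, the carbonic anhydrase Car12, had -0.26 and 0.23. The list's median was -0.36, against 0.00 over all features measured, and -0.13 when its dim members were included. It was -0.91 with the processed signals and with the deposited table, and -0.52 with an offset of 16. Otx2, a transcription factor of choroid plexus epithelium, had ratios of -0.54 and -0.73. The folate receptor Folr1 (-0.38 and -0.32), the water channel Aqp1 (-0.32 and -0.36) and the chloride channel protein Clic6 (-0.32 and -0.47) lay closer to 0. The summed intensity of the 10 genes was 9322 and 7678 in low-dose hippocampus and 16594 and 16314 in saline hippocampus. Ttr alone gave 2123 and 1704 of the low-dose sums and 8924 and 8528 of the saline sums. Most of the difference between the sums was therefore that of Ttr. Kl, Kcne2, Prlr, Slc4a5, Tmem72, Cldn2 and Kcnj13 were too dim to be measured, and Igf2 lacked a value on 1 array. Fewer cells of a type and less RNA per cell cannot be told apart in such tissue samples, and the part that dissected choroid plexus had in these ratios was not tested. In saline samples, 3 of 8 choroid plexus genes were higher in the hippocampus than in the other 5 regions, with a median difference of -0.01 log2 units. These were Ttr (2.47), Car12 (0.69) and Steap1 (0.15). The rest were not higher, among them Folr1 (-0.02), Sostdc1 (-0.04) and Aqp1 (-0.32).

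Genes of the fibrous matrix and meninges formed the next group of decreases. Col1a2, a chain of type I collagen, had intensities of 1671 and 3025 in low-dose hippocampus against 2532 and 5300 in saline hippocampus, and ratios of -0.60 and -0.81. Col3a1, the chain of type III collagen, had 779 and 657 in low-dose hippocampus against 1236 and 1059 in saline hippocampus, with ratios of -0.67 and -0.69. Ogn, the small leucine-rich proteoglycan osteoglycin, had 913 and 800 in low-dose hippocampus against 1369 and 1422 in saline hippocampus, with ratios of -0.59 and -0.83. For Col3a1 and Ogn both treated levels were below both saline levels. A second probe of Ogn gave -0.48 and -0.51, and a second probe of Col1a2 gave -0.32 and -0.26, the same sign short of the fold rule.

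These 3 genes belong to a list of 22 meningeal fibroblast genes, of which 19 had a probe and 18 were measured: 14 were lower on both arrays, 1 was higher on both (Bmp6, a bone morphogenetic protein, 0.27 and 0.16), against 19.3% and 18.8% of all measured features, and the median was -0.44. Ptgds, the prostaglandin D synthase abundant in meninges, had ratios of -0.83 and -0.58 and so missed the fold rule narrowly on 1 array. Igfbp2, an insulin-like growth factor binding protein, had -0.47 and -0.60, and the GABA transporter Slc6a13 -0.48 on both arrays. The summed intensity of the list was 88328 and 85319 in low-dose hippocampus and 115867 and 111772 in saline hippocampus, and the part of adhering meninges in the ratios was not tested.

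Cilp and Ptprj belonged to none of the lists. Cilp, a cartilage matrix protein, had intensities of 272 and 282 in low-dose hippocampus against 477 and 496 in saline hippocampus, and ratios of -0.81 and -0.82. Its second probe gave -0.14 and -0.21, so the decrease was seen at that size with 1 of 2 probes. Ptprj, a receptor protein tyrosine phosphatase, had 3476 and 1755 in low-dose hippocampus against 5890 and 3099 in saline hippocampus, and ratios of -0.76 and -0.82. Its second probe (-0.07 and -0.30) was well above background in the saline channel of 1 array only. Coch and Crabp2 lay just short of the fold rule, with -0.60 and -0.56 for Coch, an extracellular matrix protein that is also in the CA3 list, and -0.54 on both arrays for Crabp2, a retinoic acid binding protein.

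Blood cell transcripts were lower as well. Of 15 such genes listed, 12 had a probe and 7 were measured; all 7 were lower on both arrays, against 19.3% of all measured features, none past the fold rule, with a median of -0.25. The haemoglobin beta chain gene Hbb-b1 had 44984 and 40230 in low-dose hippocampus against 66638 and 63737 in saline hippocampus, with ratios of -0.57 and -0.66, and the alpha chain gene Hba-a3 had ratios of -0.49 and -0.53. The list's median was -0.08 without replicate 2, and likewise -0.08 when its dim members were included. At the low dose it was also negative in each of the other regions, from -0.12 in the amygdala to -0.57 in the ventral striatum. Haemoglobin genes have close copies that a probe may not separate, and the part of blood left in the tissue was not tested.

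Among immediate early genes, 1 was past the fold rule at the low dose. Ccn1 encodes a secreted matricellular protein and is transcribed quickly after growth factor or activity signals; it had intensities of 263 and 220 in low-dose hippocampus against 164 and 125 in saline hippocampus. Both treated levels were above both saline levels, the ratios were 0.68 and 0.82 and their mean 0.75 ± 0.10 (SD, n = 2 arrays). A second Ccn1 probe gave 0.04 and 0.17 and was well above background in the saline channel of 1 array only. Of 54 immediate early genes listed, 46 were measured and Ccn1 alone was past the fold rule, with 0 past it as lower; 17 were higher and 10 lower on both arrays, against 18.8% and 19.3% of all measured features, and the median was 0.04. Apold1, an endothelial activity-induced gene, had ratios of 0.96 and 0.45. Dusp1, a phosphatase that switches off MAP kinases, had 0.26 and 0.71, and the transcription factor gene Klf2 had 0.49 and 0.38. Of the classical neuronal members, Arc (-0.01 and 0.03) and Nr4a1 (0.11 and 0.10) stayed near 0. Fos, with -0.06 and 0.25, and Egr1, with 0.06 and -0.37, had opposite signs on their arrays. The lowest of the list was the transcription factor gene Egr2, with -0.25 and -0.54.

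The 250 bases before the transcription start are shown for 4 genes of this list that were higher on both arrays at both doses, from RefSeq (build GRCr8); the genes were chosen after their values were seen. Capitals mark the cAMP response element TGACGTCA or its core TGACG, which lies inside it, and the TATA box TATAAA, each searched on both strands. Promoters of this length held TGACGTCA in 1.59% of 33469 cases, TGACG in 18.2% and TATAAA in 12.9%. Of 40 promoters found for the 54 immediate early genes, 6 held TGACGTCA, 23 TGACG and 12 TATAAA. Further motifs searched but not marked were the AP-1 site (6.34% of all promoters, 0 of the 40) and the CArG box (1.5%, 5 of the 40).
Ccn1, chr2:237225690-237225939, minus strand: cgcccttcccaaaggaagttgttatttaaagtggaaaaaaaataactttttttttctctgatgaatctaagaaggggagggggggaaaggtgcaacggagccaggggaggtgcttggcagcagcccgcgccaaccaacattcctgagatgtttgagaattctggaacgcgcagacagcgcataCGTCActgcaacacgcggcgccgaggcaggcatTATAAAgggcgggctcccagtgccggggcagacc
Apold1, chr4:169552349-169552598, plus strand: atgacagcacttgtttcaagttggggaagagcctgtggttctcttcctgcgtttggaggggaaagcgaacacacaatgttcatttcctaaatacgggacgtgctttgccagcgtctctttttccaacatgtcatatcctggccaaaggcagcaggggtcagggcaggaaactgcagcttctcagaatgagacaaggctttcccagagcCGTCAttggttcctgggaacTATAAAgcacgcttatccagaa
Dusp1, chr10:17184603-17184852, plus strand: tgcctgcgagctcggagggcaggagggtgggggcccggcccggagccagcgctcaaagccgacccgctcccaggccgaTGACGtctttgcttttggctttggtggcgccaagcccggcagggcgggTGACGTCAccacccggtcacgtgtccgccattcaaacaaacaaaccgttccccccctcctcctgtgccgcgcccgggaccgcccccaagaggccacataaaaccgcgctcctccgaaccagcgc
Btg2, chr13:48087691-48087940, minus strand: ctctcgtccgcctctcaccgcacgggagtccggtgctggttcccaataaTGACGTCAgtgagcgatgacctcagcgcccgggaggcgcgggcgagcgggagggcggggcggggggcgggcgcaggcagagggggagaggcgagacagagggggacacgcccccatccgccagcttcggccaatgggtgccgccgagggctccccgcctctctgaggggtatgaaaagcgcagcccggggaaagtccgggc
The whole element was found in Dusp1, 124 bases before the start, and in Btg2, 201 bases before it. Ccn1 and Apold1 held the core and a TATA box, with the TATA box 34 and 22 bases before the start. A match describes letters only and says nothing of a factor's binding.

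The remaining named and unnamed increases were small in number. Rec114, a gene known for its role in meiotic recombination, had intensities of 179 and 243 in low-dose hippocampus against 119 and 150 in saline hippocampus, with ratios of 0.59 and 0.70; its saline channel was well above background on 1 of 2 arrays. LOC685106 had 996 and 686 in low-dose hippocampus against 213 and 143 in saline hippocampus. Its ratios of 2.22 and 2.26 differed by far less than their distance from 0, and their mean of 2.24 ± 0.03 (SD, n = 2 arrays) was the highest of the 9 increases. The other 6 increases without a symbol had means from 0.74 to 1.26, led by the probe A_44_P439942 with 1.58 and 0.95. The 3 decreases without a symbol had means of -0.68, -0.95 and -1.10.

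Gene lists of the drug's target pathway and of hippocampal cell types had medians close to 0. Of 7 NMDA receptor subunit genes, 4 were measured, all 4 with opposite signs on their arrays: Grin1, the obligatory subunit, had 0.13 and -0.02, Grin2a 0.17 and -0.12, Grin2b -0.21 and 0.10, and Grin2c -0.14 and 0.11. Of 23 genes of the NMDA receptor's postsynaptic signalling, 21 were measured and 0 were past the fold rule; the highest was Rasgrf2, a calcium-regulated activator of Ras, with 0.45 and 0.66. The lists for CA1, CA2, CA3 and dentate granule cells had medians of 0.01, -0.01, -0.09 and 0.05, and interneuron genes -0.04. The CA3 median was -0.24 without replicate 2, and the lowest gene of that list was Coch. In the CA2 list 1 gene was past the fold rule, Sostdc1, which the choroid plexus list holds as well. Astrocyte, microglia and oligodendrocyte lists had medians of 0.00, 0.05 and 0.04, and blood vessel genes 0.00. The oligodendrocyte median had opposite signs on single arrays, 0.17 without replicate 1 and -0.14 without replicate 2.

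Interferon-stimulated genes were mostly a little lower: 19 of 28 listed were measured, 13 lower and 2 higher on both arrays, against 19.3% and 18.8% of all measured features, 0 past the fold rule, with a median of -0.11. Isg15, a ubiquitin-like protein induced by interferon, had -0.50 and -0.51, and Rsad2, which encodes the antiviral protein viperin, -0.29 and -0.72. Of 30 genes of MHC class I and its peptide loading, 19 were measured with a median of -0.04, and the lowest, RT1-CE3, had -0.79 and -0.42. RT1 genes are close copies of each other, so a probe's signal cannot be assigned to 1 of them with certainty. Genes known to respond to glucocorticoids had a median of 0.12 over the 19 measured, with 10 higher and 3 lower on both arrays, against 18.8% and 19.3% of all measured features, and the median was 0.23 without replicate 1; the serum- and glucocorticoid-induced kinase gene Sgk1 had 0.29 and 0.32. The glucocorticoid list's low-dose median was also positive in the other regions, from 0.05 in the cortex to 0.15 in the hypothalamus. Its highest gene in the hippocampus, Dusp1, is in the immediate early list as well. Every list not named with a value had a median between -0.05 and 0.06.

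**Figure D2:**
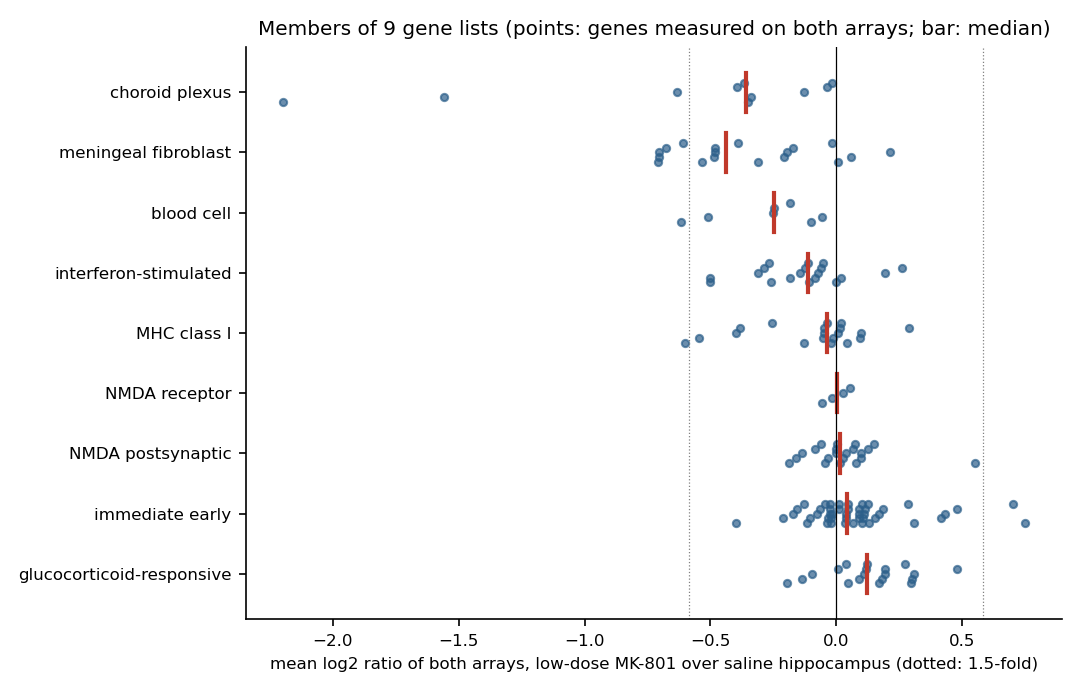
Mean log2 ratio of both arrays, low-dose MK-801 over saline hippocampus (horizontal axis), for the measured members of 9 gene lists; each point is a gene, the bar is the list's median and dotted lines mark 1.5-fold. Choroid plexus (median -0.36) and meningeal fibroblast genes (-0.44) lie to the left of 0, whereas NMDA receptor subunits lie at 0.

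The hippocampal ratio was then compared with the low-dose ratios of the other 5 regions, each averaged over its pair, with limma and Benjamini-Hochberg adjustment over 19890 features. The test treats the hippocampal value as if it varied like the regions among themselves. It called 15 features, 3 higher (0.0151%) and 12 lower (0.0603%) in the hippocampus, and 1510 (7.59%) had an unadjusted p under 0.05. Sostdc1 was the one call that was also past the fold rule: its ratio was -1.56 in the hippocampus and between -0.09 and 0.51 in the other regions, a difference of -1.73 ± 0.19 (SE; adjusted p = 0.0267, limma, n = 6 regions). Ttr, with -2.20 in the hippocampus and -0.80 to 0.42 elsewhere, differed by -2.18 ± 0.35 (SE) but missed the threshold (adjusted p = 0.0686, limma); its lowest value outside the hippocampus was the midbrain's -0.80 ± 0.15 (SD, n = 2 arrays).

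Hdc, the enzyme that makes histamine, had intensities of 390 and 246 in low-dose hippocampus against 238 and 179 in saline hippocampus, and ratios of 0.71 and 0.46. The other regions ranged from -0.23 to 0.04, and the difference was 0.72 ± 0.10 (SE; adjusted p = 0.0364, limma). Ppl, the cytoskeletal linker periplakin, had ratios of 0.31 and 0.58 and a difference of 0.51 ± 0.07 (SE; adjusted p = 0.0364, limma). Over all alternatives the adjusted p ranged from 0.00402 to 0.459 for Hdc, from 0.00757 to 0.613 for Ppl and from 0.000497 to 0.226 for Sostdc1 (limma). The calls for Prmt6, an arginine methyltransferase, and Map3k5, a stress-activated kinase, rested on replicate 1: Prmt6 had -1.06 and 0.05, and Map3k5 -1.19 and 0.26. In all, 7 of the 15 calls had opposite signs on the hippocampal pair, a disagreement that the test on pair means does not see. The number of calls was 0 without the hypothalamus and 0 without the ventral striatum (1188 and 1126 at an unadjusted p under 0.05, limma), 2 without the cerebral cortex, 4 without the midbrain, 1 with scan day as a block, which was not among the 15, and 3 without replicate 1; the adjusted p of Sostdc1 was then 0.0751, 0.111, 0.016, 0.0134, 0.226 and 0.0478 in the same order. With the scanner software's processed signals 18 features were higher and 41 lower, and with median centring 0 and 1.

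**Figure D3:**
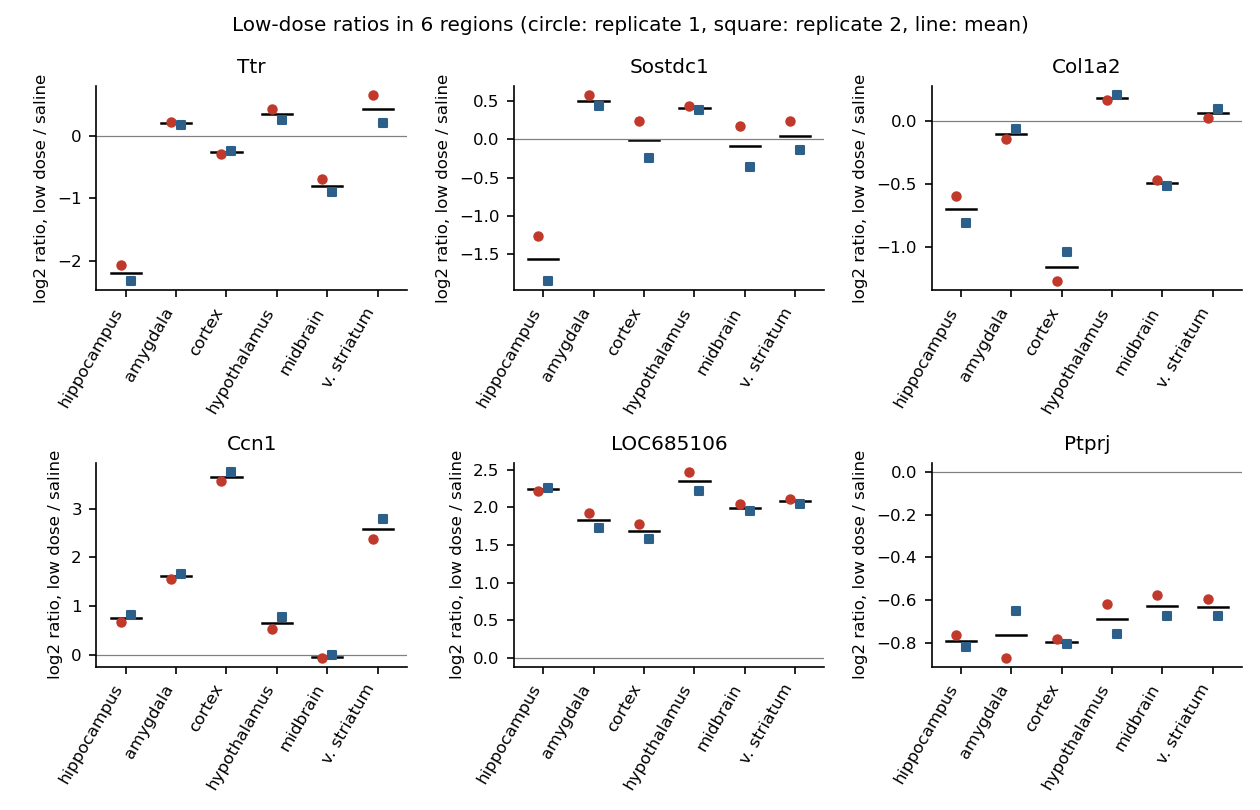
Log2 ratio of low-dose MK-801 over saline RNA (vertical axis) in the hippocampus and the other 5 regions (horizontal axis) for 6 transcripts; circles are replicate 1, squares replicate 2 and lines their mean. Ttr and Sostdc1 are lowest in the hippocampus, Ccn1 is highest in the cortex, and LOC685106 and Ptprj lie at like values in all 6 regions.

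The other transcripts past the fold rule that could be tested missed the threshold of the test between regions, which does not show that they were alike. The unnamed probe A_42_P686427, with -0.92 and -0.99 in the hippocampus and a mean of 0.01 in the other regions, differed by -0.96 (adjusted p = 0.0514, limma). Ccn1 in the hippocampus had 2 regions below it and the rest above: its ratio was 0.75 ± 0.10 in the hippocampus, against 3.66 ± 0.14 in the cortex, 2.57 ± 0.30 in the ventral striatum, 1.61 ± 0.06 in the amygdala, 0.65 ± 0.16 in the hypothalamus and -0.04 ± 0.03 in the midbrain (SD, n = 2 arrays each). The hippocampal and hypothalamic values differed by less than the spread of their arrays. Col1a2 was lower in the cortex (-1.16 ± 0.16) than in the hippocampus (-0.70 ± 0.15). It was near 0 in the ventral striatum (0.06 ± 0.05, SD, n = 2 arrays each). Col3a1 likewise had -0.98 in the cortex and -0.68 in the hippocampus. Cilp had -0.81 in the hippocampus and -0.78 in the midbrain, with the other regions between -0.31 and -0.02.

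Transcripts that rose or fell in the other 5 regions had median hippocampal ratios close to theirs. Tested over those regions with limma, 231 features were higher (1.16% of 19890) and 200 lower (1.01%) at the low dose; of these 157 and 141 had the same sign on both hippocampal arrays, where 18.8% and 19.3% of all measured features were higher or lower on both. The median ratio of the 231 was 0.19 in the hippocampus and 0.20 in the other regions, and that of the 200 was -0.21 in the hippocampus and -0.21 in the other regions. Of the 15 features called between the hippocampus and the other regions, 0 were among the 431. The 431 were only 1.16% (higher) and 1.01% (lower) of the features tested, so 0 of 15 is near that share. Because every region came from the same rats, the hippocampus is no independent sample of animals in this comparison, and a difference between the low-dose and the saline rats other than the drug cannot be told apart from the drug.

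LOC685106 had 2.24 in the hippocampus and between 1.68 and 2.35 in the other regions, where its mean was 1.99 (adjusted p = 9.64e-07, limma). Ptprj had -0.79 in the hippocampus and -0.70 ± 0.03 (SE; adjusted p = 2.66e-06, limma) in the others, where it ranged from -0.79 to -0.62. Among the named increases of the other regions, the hippocampal ratios were 0.56 and 0.38 for the chromatin remodelling factor gene Rsf1, 0.81 and 0.36 for the oxidoreductase gene Pyroxd2, 0.53 and 0.44 for Abcg2, an efflux transporter of brain capillaries, and 0.46 and 0.42 for Asb13. For the immediate early gene Btg2, a regulator of cell proliferation, the hippocampus had 0.20 and 0.14, the lowest of the 6 regions, against a mean of 0.77 in the others. Among the named decreases, the hippocampal ratios were -0.82 and -0.35 for Galnt16, a glycosyltransferase that starts O-linked glycans, -0.79 and -0.30 for RT1-CE16, -0.38 and -0.12 for Hbb and -0.26 and -0.27 for Syt12, a synaptotagmin. Haus1, a subunit of the augmin complex of the spindle, had -0.19 and -0.71, but its second probe gave 0.23 and 0.19.

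The low dose was set against the high dose within the hippocampus, as the difference of log2 ratios between arrays of the same dye orientation. Both doses were read against saline hippocampus, so their ratios share it, and with 1 replicate a dose there was no test. Past 1.5-fold in both orientations, 6 features were higher (0.0304% of 19743) and 8 lower (0.0405%) at the low than at the high dose; with median centring the split was 33 and 14. At the high dose itself 10 features were higher (0.0463%) and 15 lower (0.0694%) than saline by the fold rule. Choroid plexus and collagen genes were below saline at both doses: Ttr had -2.20 at the low and -2.62 at the high dose, Sostdc1 -1.56 and -1.35, and Col1a2 -0.70 and -0.89. As these ratios share the saline tissue, they are not separate support for one another. Large ratios of Ttr and Sostdc1 were not limited to the hippocampus. At the high dose they were -2.00 and -1.19 in the hypothalamus, and 1.34 and 1.61 in the amygdala. In the remaining regions at that dose Ttr lay between -0.18 and 0.78 and Sostdc1 between -0.14 and 0.25.

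Among the 8 features lower at the low than at the high dose were the immediate early genes Ccn1, Apold1, Atf3 and Btg2. Ccn1 had 0.68 and 0.82 at the low dose against 2.37 and 1.85 at the high dose, and Apold1 0.96 and 0.45 against 2.36 and 1.57. Atf3, a stress-induced transcription factor gene, had 0.12 and -0.33 at the low dose against 2.02 and 1.25 at the high dose. Btg2 differed likewise, with 0.20 and 0.14 against 1.04 and 0.96. For each of these 4 genes both low-dose ratios were below both high-dose ratios, but the genes were picked by this same difference. The haemoglobin genes had opposite signs at the doses: Hbb-b1 had -0.57 and -0.66 at the low dose against 0.34 and 0.36 at the high dose, and Hba-a3 -0.49 and -0.53 against 0.39 and 0.28.

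Higher at the low than at the high dose were Galnt16, with -0.82 and -0.35 against -2.23 and -2.03 and Pyroxd2, with 0.81 and 0.36 against -0.16 and -0.57. LOC685106 was in the same group, with 2.22 and 2.26 at the low dose against 0.19 and -0.01 at the high dose. Rats of different doses are different animals, so dose and animal cannot be told apart for transcripts of this kind.

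**Figure D4:**
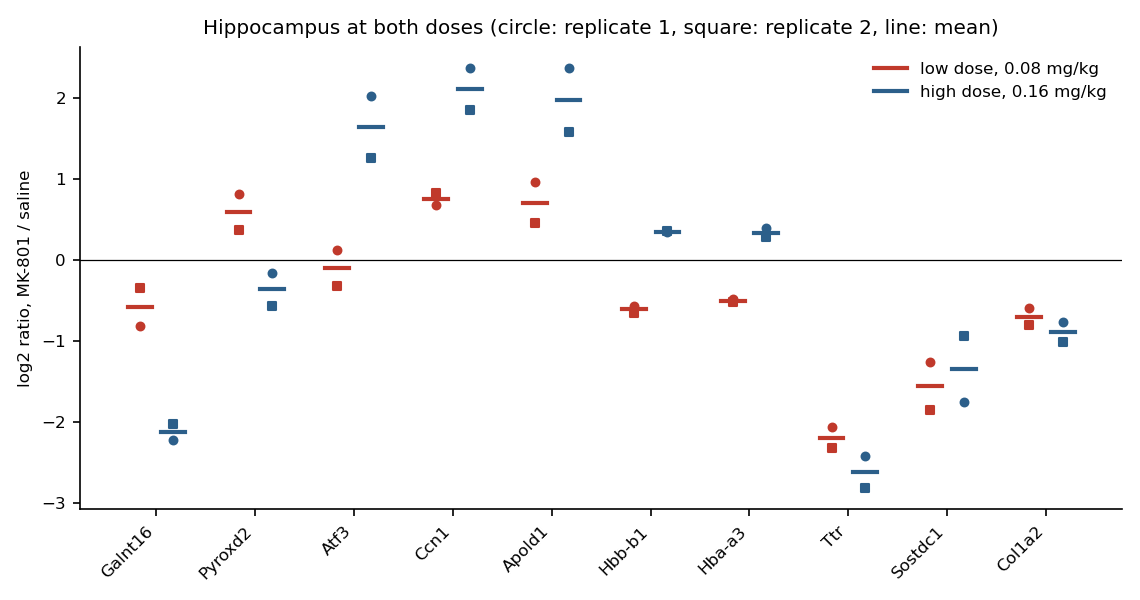
Log2 ratio of MK-801 over saline hippocampus (vertical axis) at the low dose (red, left) and the high dose (blue, right) for Galnt16, Pyroxd2, Atf3, Ccn1, Apold1, Hbb-b1 and Hba-a3, which differed past 1.5-fold between the doses, and for Ttr, Sostdc1 and Col1a2; circles are replicate 1, squares replicate 2 and lines their mean. Atf3, Ccn1 and Apold1 are higher at the high dose, Hbb-b1 and Hba-a3 change sign, and Ttr is low at both doses.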

How the data were processed

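Agilent whole-genome rat arrays with 2 colours were used. The scanner output deposited by the authors held spot intensity per channel, made with Agilent Feature Extraction 9.5.3.1 per the file headers. The authors' deposited table held log10 of treated over saline: it matched the processed signals to within 0.01 for 100% of values, which settles direction and scale. Its column medians for the pair were -0.02 and 0.02.

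Here, mean signals were background-corrected (normexp, offset 50) and loess-normalised within arrays in limma 3.58.1 (R 4.3.3), with control spots at weight 0. Outlier spots were left out (582 and 463 of 43379), and swapped ratios were turned. Spots of a probe were averaged, and the brightest probe stood for a gene. Levels are normalised intensity after equalising brightness between arrays. They were not compared between probes, but were added over the probes of a list for its summed intensity. Names came through a RefSeq table of GRCr8 (12697 spots through the systematic accession, 135 through another, 5643 by symbol, 3719 by synonym, and 21185 kept the file's name); 15443 of 35525 features had a symbol. Exons and untranslated regions are not stated, since no rn3 annotation was used.

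Groups came from the titles. Differences between regions were fitted on pair means with limma's trend on brightness. The members and gene lists were chosen with earlier results of these data known. Genes were named by rule: those with a symbol past the fold rule (at most 15 each way), the leading ones of each further comparison (8 each way between and across regions, 5 each way between doses), list members past the fold rule and defining members. A gene that the rule names between doses is not reported here. Regions share rats and each pair is 1 replicate, so p-values measure the spread between regions, which may be technical. The number of arrays limits precision. Alternatives covered the signal, offset, centring, dim-probe filter, probe summary, dye effect, threshold, replicates, regions and scan day.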

Additional observations from a re-analysis of the deposited data

Results flagged for a closer look

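The low-dose ratio of 5 named genes differed between the hippocampus and the other 5 regions in limma's test of the difference. Hdc was 0.72 and Ppl 0.51 higher in the hippocampus on the log2 scale. Sostdc1 (-1.73), Prmt6 (-0.58) and Map3k5 (-0.51) were lower there. For Prmt6 and Map3k5 replicate 1 alone gave the decrease. The test rests on 1 hippocampal pair mean, whose spread was taken from the other regions. With scan day as a block all 5 lost the call (adjusted p = 0.226 for Sostdc1, 0.459 for Hdc, 0.24 for Ppl, 0.291 for Prmt6 and 0.24 for Map3k5, limma), and none of the 5 was called without the hypothalamus or without the ventral striatum.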

How the results depend on the processing

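No paired analysis was possible because the titles carry no replicate numbers that tie samples of different groups to each other; only dye orientation was matched between doses. The 19 hippocampal transcripts past the fold rule became 64 from processed signals, 64 from the deposited value table, 8 with median centring, 131 to 265 with 1 array alone and 4 at a threshold of 2-fold. The 14 that differed between doses became 100, 102, 47, 64 to 80 and 5 under the same settings, and 23 with an offset of 16. The 15 that differed between the hippocampus and the other regions became 59 with processed signals, 58 with the deposited table, 24 with an offset of 16, 1 with median centring, 72 without the filter on dim probes, 3 to 30 with 1 array of each pair, 1 with scan day as a block (not among the 15), 2 without the cortex, 4 without the midbrain, and 0 without the hypothalamus or the ventral striatum. The 431 in the other 5 regions became 888 with scan day as a block, 225 without the hypothalamus and 218 without the ventral striatum. With 1 array of each pair, where the dye effect does not cancel, they became 5503 to 6561. Map3k5's difference between the hippocampus and the other regions ranged from -1.14 to 0.11 with 1 array of each pair. For single genes, 44 recomputed hippocampal ratios moved beyond the spread of their arrays and 244 did not; those that moved included dim probes (Ccn1 1.61 and Rec114 2.02 with processed signals), and no ratio of a gene past the fold rule changed sign. The causes of these changes were not tested. Probes near background limit what these arrays can show.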
